A study of Mus musculus with 6 samples.

Results

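The chromatin of 33 marker genes of brain cells other than astrocytes was examined in nuclei that had been sorted as astrocytes. The genes, chosen from a list by cell class, were 9 neuronal, 9 oligodendrocyte lineage, 7 microglial and 8 vascular markers out of 21644 protein-coding genes. A peak was assigned to a gene when its summit lay in the gene body or within 10 kb of it. The assay was ATAC-seq, whose Tn5 transposase inserts sequencing adapters where chromatin is open. All 6 libraries came from primary visual cortex (V1) of GRfl/fl mice at postnatal day 21, which had received an AAV2/5 vector between days 0 and 1. In both groups the vector held the GfaABC1D promoter, a short promoter derived from that of Gfap, followed by a Cre or ΔCre sequence, a T2A peptide, EGFP fused to KASH, which places it on the nuclear envelope, and a 4x6T element. GR-con mice (GR-Con in the labels, 3 libraries) were given the ΔCre form, an inactive Cre, and GR-KO mice (3 libraries) the Cre form, directed at the floxed gene of the glucocorticoid receptor (GR). Each library pooled tissue of 3 to 4 animals and 50000 events positive for DRAQ5, a DNA dye, and for GFP. A library was thus a pool of animals, the sort depended on where the GfaABC1D promoter was active, and the comparison asks how much accessibility of other cell types the sorted nuclei carried and whether it differed between GR-con and GR-KO.

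Marker genes of differentiated cells are usually most accessible in the cells that express them, at promoters and at enhancers in introns and flanks. Promoters rich in CG dinucleotides are an exception in general, since they tend to be open in many cell types whether or not the gene is transcribed. Oligodendrocyte progenitors arise from neural progenitors as astrocytes do, whereas microglia come from the yolk sac and endothelial cells from mesoderm.

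The deposited lists held 179462 to 198929 peaks per library, with a median fold enrichment of 4.40 to 4.89 over the local background of the library. Depth is not known from such lists, and folds from different libraries do not share a scale, so ranks within a library were compared. At the promoter of the targeted gene Nr3c1 the fold was 7.04, 7.02 and 6.03 in GR-con 1, 2 and 3 and 6.28, 6.27 and 5.69 in GR-KO 1, 2 and 3 (difference in normal score −0.06 ± 0.07 (SE), adjusted p = 0.832), a value that does not read the excision and so does not check the labels. The labelled cell type was checked on 16 astrocyte markers, among them the water channel gene Aqp4 and the glutamate transporter gene Slc1a2. All 16 had a promoter peak in every library, whereas 2 of 23 markers of tissues outside the brain had one in every library (Mylpf and Krt10) and 20 had none in any library. Among all protein-coding genes, 61.6% had a promoter peak in every library and 33.5% in none.

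The 33 marker genes fell between these lists. A promoter peak, with its summit within 500 bp of a protein-coding transcript start, was found in all 6 libraries for 15 genes (45.5%), in some libraries for 5 and in none for 13 (39.4%). The 15 genes were Rbfox3, Snap25, Syt1, Camk2a, Mbp, Olig1, Olig2, Pdgfra, Cspg4, P2ry12, Tmem119, Flt1, Kdr, Pdgfrb and Rgs5. In these bulk libraries a small share of nuclei with an open promoter cannot be told apart from weak opening in many nuclei. Mean folds of the 15 ran from 3.44 (Rgs5) to 16.99 (Pdgfra), and those of the 16 astrocyte markers from 4.56 (Aqp4) to 16.3 (Aldh1l1), so the ranges overlapped. The median promoter fold over all 33 genes, the 13 without a peak included, was 1.81, 1.80 and 1.78 in GR-con 1, 2 and 3 and 2.08, 2.22 and 3.37 in GR-KO 1, 2 and 3, against 8.93 to 9.35 over all protein-coding genes and 7.53 to 9.29 over the 16 astrocyte markers. The GR-KO medians lay above the GR-con ones, and the gene in the middle of the order was Sall1 in each GR-con library and Cldn5, Slc17a7 and Gad2 in GR-KO 1, 2 and 3, so this value rests on 1 weak promoter in each library.

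**Figure D1:**
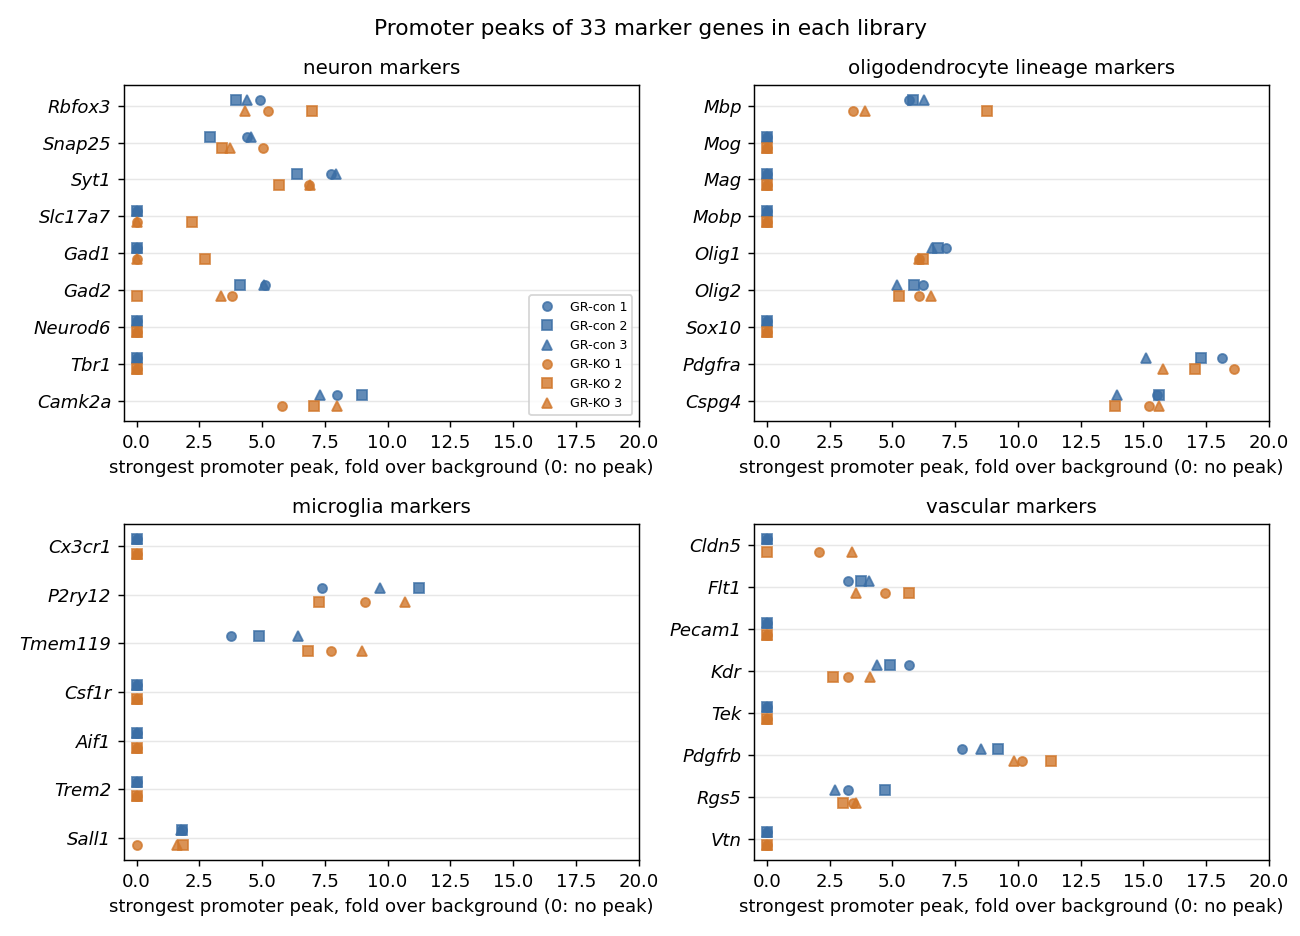
Fold enrichment of the strongest promoter peak (x axis) of each of the 33 marker genes (y axis, by cell class) in each library, with GR-con in blue and GR-KO in orange and 0 for no peak. Pdgfra and Cspg4 lie at 13.9 to 18.6 in all 6 libraries, P2ry12 and Pdgfrb at 7.26 to 11.3, and 13 genes lie at 0 throughout.

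Among the 9 neuronal markers, the promoters of general neuronal genes carried peaks and those of cortical lineage factors did not. Rbfox3, which encodes the splicing factor NeuN, had folds of 4.91, 3.95 and 4.40 in GR-con 1 to 3 and 5.24, 7.0 and 4.30 in GR-KO 1 to 3, with the strongest peak at the 5′ start in 3 libraries and at an inner start in the other 3. Snap25, a component of the vesicle fusion machinery, ranged from 2.92 to 5.02. Syt1, the calcium sensor of transmitter release, had 7.75, 6.40 and 7.95 in GR-con and 6.86, 5.68 and 6.92 in GR-KO libraries. These 3 genes stood well below the median promoter, at mean percentiles of 41.8, 39.9 and 45.5 among all protein-coding genes, where a gene with no peak is tied at 18.02. The promoter peak of Camk2a, a kinase of excitatory synapses, had folds of 5.79 to 8.99, and its summits lay at a transcript start inside the gene and not at the 5′ end of the gene. Gad2, an enzyme of GABA synthesis, had a peak in 5 libraries with folds of 5.10, 4.14 and 5.07 in GR-con, 3.79 and 3.37 in GR-KO 1 and 3, and none in GR-KO 2. Gad1, the other such enzyme, and Slc17a7, the vesicular glutamate transporter of cortical neurons, had a peak in GR-KO 2 alone, with folds of 2.74 and 2.22. Neurod6 and Tbr1, transcription factors of cortical excitatory neurons, had none in any library. Below are 150 bases upstream of the start of the neuronal gene with the highest promoter percentile at a start held in the RefSeq promoter table (Syt1; Camk2a is not in that table) and of one with none (Neurod6, the first by alphabet of those tied), with CG dinucleotides in capitals.
Syt1 promoter, chr10:109010983-109011132, minus strand: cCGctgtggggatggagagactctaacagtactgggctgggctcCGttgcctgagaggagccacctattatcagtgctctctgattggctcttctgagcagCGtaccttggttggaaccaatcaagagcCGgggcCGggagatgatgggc
Neurod6 promoter, chr6:55681264-55681413, minus strand: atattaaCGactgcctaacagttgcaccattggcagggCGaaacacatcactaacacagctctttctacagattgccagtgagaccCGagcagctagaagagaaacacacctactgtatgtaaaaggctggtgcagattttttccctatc
The Syt1 stretch holds 5 CG dinucleotides and the Neurod6 stretch 3.

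Among the 9 oligodendrocyte lineage markers, 5 had a promoter peak in every library and 4 had none. Pdgfra, the PDGF receptor of oligodendrocyte progenitors, had the strongest promoter peak of all 33 genes, with folds of 18.1, 17.3 and 15.1 in GR-con and 18.6, 17.1 and 15.8 in GR-KO libraries. Its summits lay 461 to 474 bp downstream of a start inside the gene, and 0 of 6 libraries had a peak at the RefSeq start at the 5′ end. Cspg4, which encodes the NG2 proteoglycan of progenitors and pericytes, had folds of 15.5, 15.6 and 14.0 in GR-con and 15.2, 13.9 and 15.6 in GR-KO libraries, at a position that is also within 1 kb of a start of Odf3l1. Both groups overlapped at both genes. Olig1 and Olig2, transcription factors that specify the lineage, had lower folds. Olig1 had 7.15, 6.82 and 6.58 in GR-con and 6.05, 6.23 and 6.07 in GR-KO libraries, with every GR-KO value below every GR-con value (adjusted p = 0.748), and Olig2 had 5.20 to 6.54 with the groups overlapping. On the −log10 p scale, which also grows with the number of reads, the order was closer. Values were 155 to 228 for Pdgfra, 129 to 181 for Olig1, 130 to 165 for Cspg4 and 89.96 to 124 for Olig2, against 6.47 to 31.2 for Mbp, which encodes myelin basic protein. Mbp had promoter folds of 5.67, 5.83 and 6.26 in GR-con and 3.43, 8.76 and 3.93 in GR-KO libraries, so the GR-KO libraries lay on both sides of the GR-con ones. The myelin genes Mog, Mag and Mobp and Sox10, a transcription factor of the whole lineage, had no promoter peak in any library. The upstream 150 bases are shown for Cspg4, the strongest of the class with its peak at the RefSeq start, and for Mag, which had no peak.
Cspg4 promoter, chr9:56864883-56865032, plus strand: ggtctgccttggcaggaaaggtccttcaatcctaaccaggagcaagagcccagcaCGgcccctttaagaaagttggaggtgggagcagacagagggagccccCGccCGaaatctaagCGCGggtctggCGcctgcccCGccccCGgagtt
Mag promoter, chr7:30914864-30915013, minus strand: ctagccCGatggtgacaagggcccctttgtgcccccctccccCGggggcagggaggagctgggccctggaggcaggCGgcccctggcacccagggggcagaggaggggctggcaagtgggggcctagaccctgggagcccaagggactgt
Cspg4 has 8 CG dinucleotides in this stretch and Mag has 3.

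The 7 microglial markers had the fewest promoter peaks. Cx3cr1, Csf1r, Aif1 and Trem2, which encode a chemokine receptor, a growth factor receptor, the calcium-binding protein IBA1 and a lipid-sensing receptor, had none in any of the 6 libraries. P2ry12, a purinergic receptor of resting microglia, had a peak in all 6, with folds of 7.40, 11.2 and 9.71 in GR-con and 9.11, 7.26 and 10.7 in GR-KO libraries and −log10 p of 24.6 to 49.8. Tmem119, a membrane protein of resident microglia, had folds of 3.78, 4.89 and 6.42 in GR-con and 7.77, 6.81 and 8.98 in GR-KO libraries, with every GR-KO value above every GR-con value. Sall1, a transcription factor of microglial identity, had a weak peak in 5 libraries (1.61 to 1.87) and none in GR-KO 1. P2ry12, the highest of the class, stood at a mean percentile of 50.3 among all promoters. The 150 bases upstream of P2ry12 and of Aif1 are shown as the strongest promoter of this class and one with no peak.
P2ry12 promoter, chr3:59262986-59263135, minus strand: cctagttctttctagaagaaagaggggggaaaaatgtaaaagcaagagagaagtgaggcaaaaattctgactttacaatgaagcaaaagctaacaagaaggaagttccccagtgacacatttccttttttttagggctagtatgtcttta
Aif1 promoter, chr17:35176053-35176202, minus strand: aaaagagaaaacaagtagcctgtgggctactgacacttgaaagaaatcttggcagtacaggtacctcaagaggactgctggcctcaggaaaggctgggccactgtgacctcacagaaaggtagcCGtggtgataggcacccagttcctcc
P2ry12 has 0 CG dinucleotides in the stretch shown and Aif1 has 1.

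Among the 8 vascular markers, the highest promoter was that of a mural gene. Pdgfrb, the PDGF receptor of pericytes, had folds of 7.76, 9.21 and 8.52 in GR-con and 10.2, 11.3 and 9.83 in GR-KO libraries, with −log10 p of 127 to 224 and no overlap of the groups. Rgs5, a regulator of G protein signalling in pericytes, had 2.70 to 4.70. The VEGF receptor genes of endothelium were also low, with 3.21 to 5.68 for Flt1. Kdr had 5.67, 4.89 and 4.40 in GR-con and 3.25, 2.65 and 4.12 in GR-KO libraries, again with the groups apart and in the other direction from Pdgfrb. Cldn5, a tight junction gene, had a peak in GR-KO 1 and GR-KO 3 alone (2.08 and 3.41). Pecam1 (endothelial adhesion), Tek (the angiopoietin receptor) and Vtn (the secreted protein vitronectin) had none. Flt1, the highest of the class in the RefSeq table, and Tek are shown.
Flt1 promoter, chr5:147726012-147726161, minus strand: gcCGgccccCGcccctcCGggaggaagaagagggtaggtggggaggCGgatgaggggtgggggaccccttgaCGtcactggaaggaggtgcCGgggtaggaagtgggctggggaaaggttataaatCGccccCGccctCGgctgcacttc
Tek promoter, chr4:94739139-94739288, plus strand: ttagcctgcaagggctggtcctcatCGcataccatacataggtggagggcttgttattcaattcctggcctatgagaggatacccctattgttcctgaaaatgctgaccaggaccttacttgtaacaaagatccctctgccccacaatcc
Flt1 has 9 CG dinucleotides in the stretch shown and Tek has 1.

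The rank of −log10 p placed 5 of the 33 genes above the others. The mean promoter percentile on that scale was 60.4 for Pdgfra, 58.6 for Pdgfrb, 57.1 for Olig1, 56.1 for Cspg4 and 52.4 for Olig2, and the other 10 genes with a peak in every library lay between 37.9 (Rgs5) and 45.1 (P2ry12). The 16 astrocyte markers lay between 49.1 (Aqp4) and 84.7 (Aldh1l1). On this scale these 5 genes thus lay inside the astrocyte range and the other 10 below it. The split did not follow cell class. The 10 included Mbp (40.9) of the oligodendrocyte lineage and the pericyte gene Rgs5, and Mog, Mag, Mobp and Sox10 had no promoter peak. The fold percentile gave no such split. On it the astrocyte markers lay between 41.0 (Aqp4) and 68.3 (Aldh1l1), Rbfox3 (41.8), Mbp (43.0), Tmem119 (44.6), Syt1 (45.5), Camk2a (46.7) and P2ry12 (50.3) lay inside that range, as did Olig1, Olig2, Cspg4 and Pdgfrb. Pdgfra (70.4) lay above it, and Rgs5 (38.6), Snap25 (39.9), Kdr (40.1) and Flt1 (40.1) lay below it.

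CG content was counted in the 300-base RefSeq promoters (250 bases before to 50 after the start; GRCm38), which were given for 24 of the 33 genes. The median was 6.50 CG dinucleotides for the 24 genes and 14.0 for the 16426 genes in the table. It was 8 in the 9 of them with a peak in every library and 5 in the 10 with none. Of all genes with 0 to 4 CG dinucleotides, 13.0% had a promoter peak in every library, against 94.4% of those with 20 or more. Rbfox3 and P2ry12 were the 2 of 6 marker genes in the lowest class with a peak in every library, although the Rbfox3 peak was at another start than the one in the table, as was that of Pdgfra in the next class. In the highest class Olig2 and Flt1 had one in every library and Gad1 did not. With Rbfox3 and Pdgfra left out, a choice made after seeing the data, the median was 17 in the 7 genes with a peak at the RefSeq start in every library. Across the 24 genes CG content and mean promoter fold had a Spearman correlation of 0.42 and a Pearson correlation of 0.17, and across the 22 genes without those 2 they were 0.61 and 0.36. These are descriptions, since all points share the same 6 libraries.

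**Figure D2:**
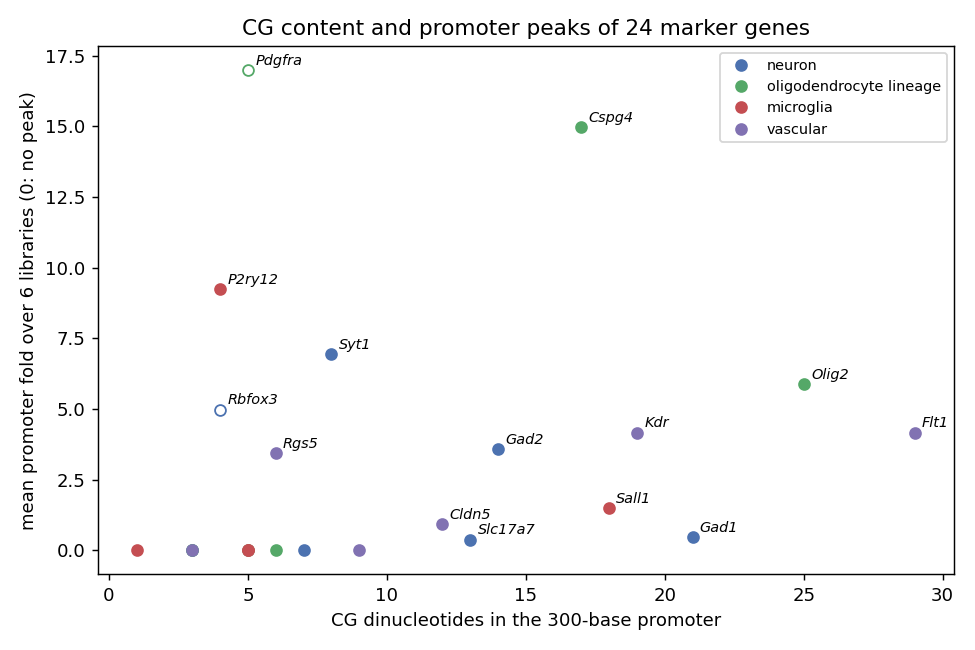
CG dinucleotides in the 300-base promoter (x axis) against mean promoter fold over the 6 libraries (y axis) for the 24 marker genes in the RefSeq table, coloured by class. Hollow points are Rbfox3 and Pdgfra, whose peaks are at another start than the one counted, P2ry12 has a fold of 9.24 with 4 CG dinucleotides, and Gad1 lies near 0 with 21.

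Over whole gene windows (the gene body and 10 kb each side) every one of the 33 genes had at least 1 peak in every library. Summed fold per 10 kb was expressed as a percentile among all protein-coding genes. The median over the class ranged across libraries from 66.8 to 72.6 for oligodendrocyte lineage, from 47.0 to 51.7 for neuronal, from 40.9 to 53.7 for microglial and from 38.0 to 43.9 for vascular markers, against 66.9 to 75.4 for the astrocyte markers and 38.0 to 43.7 for the markers outside the brain. The lowest windows were those of Tek (0.25 to 0.53 per 10 kb, with 1 summit in each library), Kdr (0.40 to 1.78) and Gad2 (1.88 to 2.46). The highest, Slc17a7 at a mean percentile of 97.9 and Vtn at 95.6, hold promoters of neighbouring genes. When summits within 1 kb of a start of another gene were left out, Vtn stood at 33.8 with 1 to 2 summits left of 6 to 7, and Slc17a7 at 94.8. Cx3cr1 is annotated over 168 kb and its window held 33 to 37 summits, of which 22 to 25 were away from starts of other genes. Window sums therefore describe the neighbourhood as well as the gene, and the single sites below are the finer measure.

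**Figure D3:**
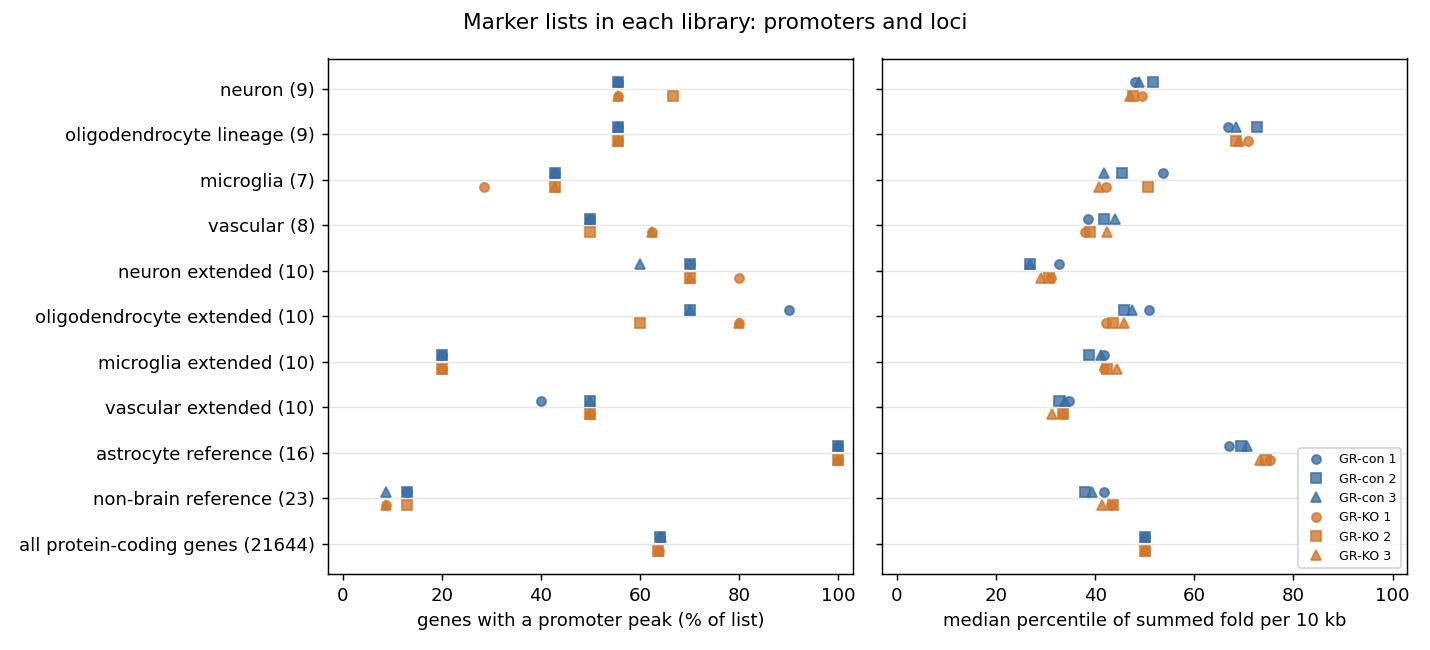
Share of each list with a promoter peak (left, % of genes) and median percentile of summed fold per 10 kb (right) in each library, with GR-con in blue and GR-KO in orange and the number of genes in brackets. The astrocyte list is at 100% on the left in all 6 libraries, and the microglial lists are at 20.0 to 42.9%.

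Further lists of 10 genes for each class were read in the same way. A promoter peak was found in every library for 6 of 10 further neuronal genes, for 6 of 10 further oligodendrocyte genes, for 4 of 10 further vascular genes and for 2 of 10 further microglial genes. The number with none in any library was 1, 1, 5 and 8. Microglial genes thus again had the fewest promoter peaks, and among those with none were Spi1, which encodes the myeloid factor PU.1, and the complement genes C1qa and C1qb. The myelin genes Mal, Cnp and Cldn11, picked here after their values were seen, had one in every library, as Mbp did. The windows of the further lists mostly stood lower than those of the first lists. Their median percentile was 42.3 to 50.8 across libraries for oligodendrocyte genes, 26.8 to 32.6 for neuronal genes and 31.3 to 34.7 for vascular genes, each below the first list of its class in all 6 libraries, and 38.8 to 44.5 for microglial genes, below the first list in 5 of 6. The further neuronal and vascular lists also lay below the 38.0 to 43.7 of the markers outside the brain, so the window level of a class depended on which genes stood for it.

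The windows of the 33 genes held 327 of 160855 sites, a site being the 200 bp to each side of a summit, with a peak in at least 2 libraries. They comprised 131 neuronal, 74 oligodendrocyte lineage, 66 microglial and 56 vascular sites. Most were intronic (195), 23 were at a promoter of the marker gene itself, 24 within 1 kb of a start of another gene, 18 in exons and 67 in flanks. A peak was present in all 6 libraries at 63.6% of them, against 62.0% of all sites. The share was lowest at neuronal sites (55.7%) and highest at vascular sites (73.2%). The 13 genes with no promoter peak had 68 sites away from starts. Of these, 46 had a peak in every library, where 62.0% of all sites did. Each of the 13 genes had at least 1 such site with a peak in every library. A promoter without a peak thus stood beside other accessible sites in the same window.

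The strongest sites away from any start belonged to such genes in 3 of the 4 classes, and in the fourth to Slc17a7, whose promoter had a peak in 1 library. Distances are from the nearest start of the gene, with upstream negative. A site at −3467 bp of Cx3cr1 had folds of 32.3, 31.7 and 29.7 in GR-con and 28.8, 27.7 and 28.0 in GR-KO libraries, at the mean percentile 99.7 of the peaks in a list. A site at −8854 bp of Mobp had 31.0, 28.9 and 28.6 in GR-con and 27.6, 28.4 and 29.3 in GR-KO libraries (percentile 99.7). The neuronal site lies beyond the 3′ end of Slc17a7, 18377 bp from its start, with folds of 22.5 to 27.9, and the vascular site is in an intron of Pecam1, 7976 bp from its start, with 14.4 to 23.4. None of the 4 was called between GR-con and GR-KO (adjusted p of 0.439 to 0.840), although every GR-KO fold at Cx3cr1 was below every GR-con fold. The bases around each centre follow, 50 to each side, with motif letters named in the next paragraph in capitals.
Cx3cr1 upstream site, chr9:120073296-120073396, plus strand: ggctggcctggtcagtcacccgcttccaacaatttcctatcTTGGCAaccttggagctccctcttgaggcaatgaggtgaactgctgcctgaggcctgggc
Mobp upstream site, chr9:120140803-120140903, plus strand: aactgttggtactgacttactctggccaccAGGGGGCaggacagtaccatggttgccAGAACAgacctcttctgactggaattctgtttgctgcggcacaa
Slc17a7 downstream site, chr7:45182351-45182451, plus strand: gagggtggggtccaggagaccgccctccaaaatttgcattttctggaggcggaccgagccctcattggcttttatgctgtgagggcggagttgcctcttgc
Pecam1 intron site, chr11:106742602-106742702, plus strand: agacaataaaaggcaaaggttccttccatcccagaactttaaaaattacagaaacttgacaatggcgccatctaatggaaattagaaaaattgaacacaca

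Short motifs were searched on both strands within 100 bp of each site centre. AGAACA, one arm of the GR palindrome, was found at 12.2% of the 327 sites, against 17.4% of all sites, and TTGGCA, one arm of the nuclear factor I site, at 17.4%, against 20.8%. Letters bound by factors of the other cells were found at shares close to or below those of all sites. GAGGAAGT, a PU.1 site of myeloid cells, was at 1 of 66 microglial sites (1.52%), against 1.49% of all sites. CAGATG, an E-box of neurogenic factors, was at 13.0% of neuronal sites, against 14.4% of all sites, and the SOX site AACAATGG was at 0 of 74 oligodendrocyte lineage sites, against 0.829% of all sites. AGGGGGC, part of the core bound by CTCF, was searched after the Mobp sequence had been seen to hold it. It was at 10.7% of the 327 sites, against 6.64% of all sites, and among sites with a mean fold percentile of 90 or more it was at 7 of 28, against 11.9% of all such sites. The capitals in the sequences above are AGGGGGC and AGAACA at Mobp and TTGGCA at Cx3cr1, whose AGGGGGC lies outside the bases shown. A match is a description of the letters and not of binding.

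Whether accessibility at these genes differed between GR-con and GR-KO was tested on normal scores of the ranks with limma, adjusted over all features. Of the 18 promoters with a peak in at least 2 libraries none was called in either direction, where 0.078% of all 14096 promoters were called lower and 0.0355% higher in GR-KO. Ranks of the groups did not overlap at 3 promoters with GR-KO above and 3 with GR-KO below (Gad2, Olig1 and Kdr), where 9.2% and 6.4% of all promoters did so. Cldn5 is among the 3 above only through the rank given to absent peaks, since GR-KO 2 had no peak there and the folds overlap. With a peak required in every library of the higher group, a choice made after seeing the data, 2 promoters lay above and 3 below, where 8.96% and 6.4% of all promoters did. Unadjusted p was under 0.05 at 2 promoters with GR-KO higher and 2 with GR-KO lower, where 4.56% and 4.98% of all promoters were. Tmem119 was higher in GR-KO by a normal score of 0.39 ± 0.11 (SE, adjusted p = 0.321) and Pdgfrb by 0.20 ± 0.07 (adjusted p = 0.388), both in 3 of 3 GR-KO libraries. Gad2 and Kdr were lower, by −0.45 ± 0.19 (adjusted p = 0.514) and −0.32 ± 0.12 (adjusted p = 0.457). None of these differences passed the test over all promoters. At P2ry12, the other microglial promoter with a peak in every library, the difference was −0.05 ± 0.12 (adjusted p = 0.931), and the difference between the 2 promoters was not tested. In the further lists, 7 neuronal, 9 oligodendrocyte, 2 microglial and 5 vascular promoters were tested and none was called. Unadjusted p was under 0.05 at 1 with GR-KO higher (Nefl) and 3 with GR-KO lower (Mal, Irf8 and Kcnj8), where 4.56% and 4.98% of all promoters were. Nefl had no peak in GR-con 2 and 3 and weak folds of 2.81 to 3.97 in the other libraries. Its difference therefore rests on the rank given to absent peaks. The smallest p, below that of any of the 18, was at Kcnj8, a potassium channel gene of pericytes, with folds of 19.1, 18.8 and 17.4 in GR-con and 15.5, 15.9 and 12.7 in GR-KO libraries (−0.48 ± 0.09, adjusted p = 0.125). The pericyte genes Kcnj8 and Pdgfrb thus had scores of opposite sign, and neither passed the test.

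Of the 33 gene windows none was called, where 0.0729% of all 17823 windows were called lower and 0.0112% higher. Unadjusted p was under 0.05 at 1 window with GR-KO higher and 1 with GR-KO lower, where 5.0% and 5.62% of all windows were. Ranks of the groups were apart at 2 windows with GR-KO above and 1 with GR-KO below, where 9.53% and 7.58% of all windows were (9.42% and 7.58% with a peak in every library of the higher group). Tmem119 was again the window of smallest p (0.30 ± 0.09, adjusted p = 0.340), and it rests on 1 summit, the promoter peak already described. Trem2 had a summed fold per 10 kb of 7.49, 7.12 and 8.04 in GR-con and 6.70, 5.25 and 5.06 in GR-KO libraries, with every GR-KO value below every GR-con value (−0.24 ± 0.08, adjusted p = 0.397). Its window holds 2 summits in each library.

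At the level of sites, 1 of the 327 was called, and it was higher in GR-KO. This was 0.306% of them, where 0.0609% of all sites were called higher and 0.127% lower. When peaks were ranked by −log10 p the same site was the 1 call (0.304% of 329 member sites), where 0.764% of all sites were called higher and 0.84% lower, so the member share lay above the background on fold and below it on −log10 p. The site lies in an intron of Syt1 on chromosome 10 (mm10 chr10:108692740-108693140), 318035 bp downstream of the nearest start. Folds were 3.40, 3.01 and 4.56 in GR-con 1, 2 and 3 and 15.3, 11.9 and 12.9 in GR-KO 1, 2 and 3, and −log10 p was 6.17, 4.91 and 11.4 against 76.6, 49.3 and 56.1. The lowest GR-KO value was thus above the highest GR-con value on both scales. Its fold percentile averaged 33.8 ± 15.6 over the GR-con libraries and 85.1 ± 3.00 over the GR-KO libraries (SD, n = 3 each), and the normal score differed by 1.30 ± 0.14 (SE, adjusted p = 0.0287 from limma). The call was lost without any one of the 6 libraries (adjusted p of 0.104 to 0.197), and under the rule that a peak must cover more than 200 bp of a site (adjusted p = 0.0846). A fit blocked on replicate number gave an adjusted p of 0.172.
Syt1 intron site, chr10:108692890-108692990, plus strand: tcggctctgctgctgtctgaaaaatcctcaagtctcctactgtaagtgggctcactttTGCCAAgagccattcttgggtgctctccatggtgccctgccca
The 50 bases to each side of the centre are shown, with TGCCAA, the reverse complement of TTGGCA, in capitals.

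The other 20 sites in the Syt1 window were not called. The promoter site, at −14 bp, had folds of 5.68 to 7.95 and a difference of −0.07 (adjusted p = 0.826). A site 31129 bp into the gene had 16.3, 15.4 and 14.9 in GR-con and 18.1, 21.4 and 20.2 in GR-KO libraries, with the groups apart and an adjusted p of 0.124. The window as a whole differed by 0.08 ± 0.06 (adjusted p = 0.64), and no site of the other neuronal genes was called.

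**Figure D4:**
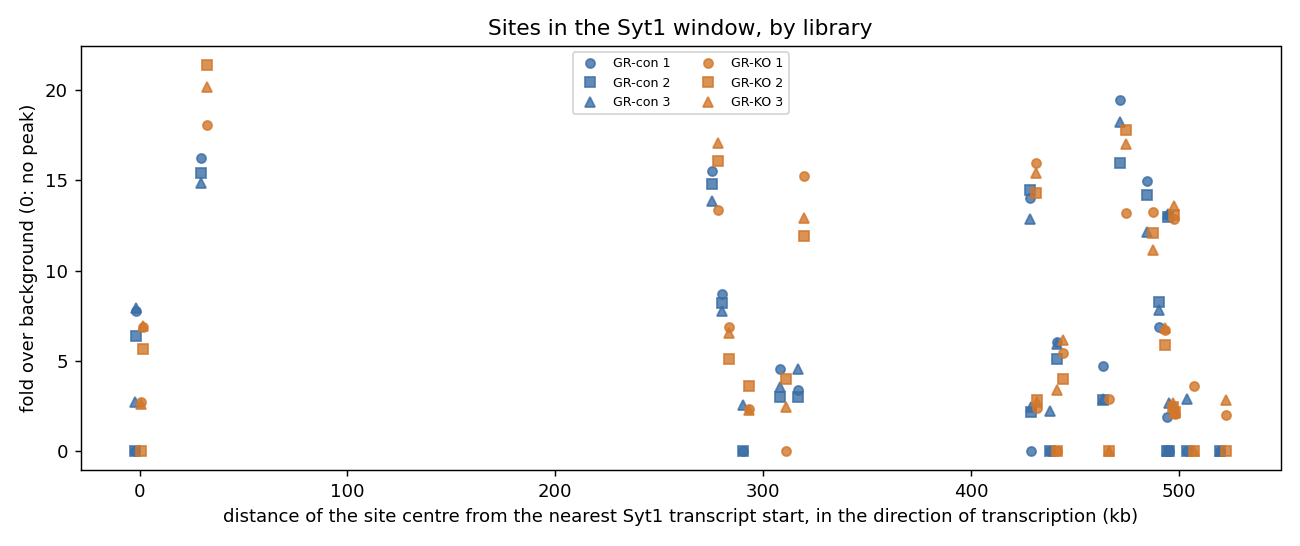
Fold enrichment (y axis, 0 for no peak) at the 21 sites of the Syt1 window by distance from the nearest transcript start (x axis, kb), in GR-con (blue) and GR-KO (orange) libraries, shifted sideways a little for legibility. At 318035 bp the GR-KO libraries lie at 11.9 to 15.3 and the GR-con libraries at 3.01 to 4.56, and at the other 20 sites the groups lie closer together.

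Unadjusted p was under 0.05 at 20 sites with GR-KO higher (6.12% of 327) and at 11 with GR-KO lower (3.36%), where 6.12% and 6.02% of all sites were. The smallest p among lower sites of each class belonged to an intronic site of Camk2a (folds of 15.7, 13.5 and 10.99 against 8.67, 5.68 and 8.79, adjusted p = 0.147), an intronic site of Pdgfra (3.59, 5.27 and 3.55 in GR-con and no peak in any GR-KO library, adjusted p = 0.0981), a site at −9345 bp of Trem2 (13.4, 14.5 and 11.8 against 9.21, 7.95 and 9.17, adjusted p = 0.0948) and an intronic site of Pdgfrb (17.5, 17.3 and 17.5 against 14.3, 14.1 and 14.5, adjusted p = 0.151). The groups were apart at the Camk2a, Trem2 and Pdgfrb sites, which had a peak in all 6 libraries. Among higher sites they were the Syt1 site, the Tmem119 promoter (adjusted p = 0.268), an intronic site of Mbp (adjusted p = 0.332) and another intronic site of Pdgfrb with no peak in GR-con and folds of 2.62 to 2.79 in GR-KO (adjusted p = 0.186). Neither Pdgfrb site was called. The Pdgfra site and this second Pdgfrb site had peaks in 1 group alone, so that they entered the test through that group, and their direction and the gap between groups follow from that filter. Over all sites of a class, 61 of 131 neuronal, 31 of 74 oligodendrocyte lineage, 29 of 66 microglial and 27 of 56 vascular sites had the lower score in GR-KO, where 46.7% of all sites had it and 53.3% the higher score.

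**Figure D5:**
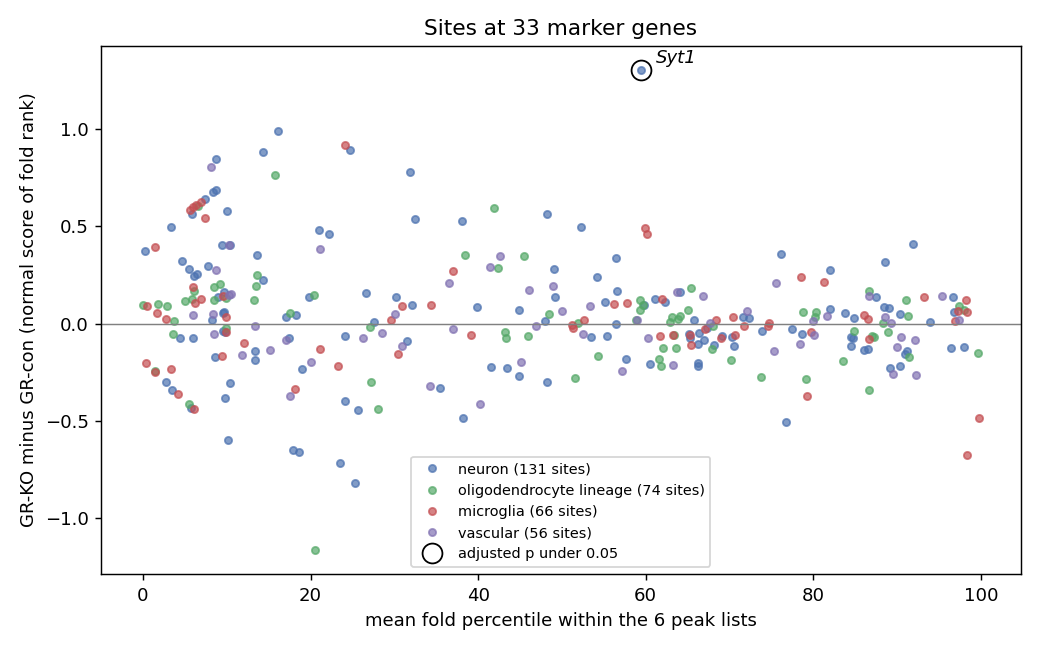
Difference between GR-KO and GR-con (y axis, normal score of the rank of fold) against the mean fold percentile in the 6 lists (x axis, %) for the 327 sites, coloured by class. Only the circled Syt1 site passed an adjusted p of 0.05, and the spread is widest at low percentiles, where some libraries have no peak.

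The levels of the classes were set side by side by library, as a description. Promoter peaks were present at 5 of 9 neuronal markers in 5 libraries and at 6 in GR-KO 2, at 5 of 9 oligodendrocyte lineage markers in every library, at 3 of 7 microglial markers in 5 libraries and at 2 in GR-KO 1, and at 4 of 8 vascular markers in GR-con and 4 or 5 in GR-KO libraries. The median window percentile was 49.5 ± 1.94 in GR-con and 48.0 ± 1.28 in GR-KO libraries for neuronal, 69.2 ± 2.97 and 69.4 ± 1.33 for oligodendrocyte lineage, 47.0 ± 6.13 and 44.6 ± 5.37 for microglial and 41.4 ± 2.75 and 39.8 ± 2.25 for vascular markers (SD, n = 3 each). Each of these window differences was smaller than the larger SD. The median promoter percentile was 39.5 ± 1.86 in GR-con and 38.6 ± 1.23 in GR-KO libraries for neuronal, 42.7 ± 0.56 and 40.4 ± 1.76 for oligodendrocyte lineage and 28.0 ± 0.65 and 34.7 ± 6.14 for vascular markers, and the median microglial marker had no promoter peak. The oligodendrocyte lineage and vascular differences exceeded the larger SD, and the libraries of the groups overlapped in both (38.96 to 42.4 in GR-KO against 42.1 to 43.1, and 27.7 to 38.99 against 27.3 to 28.6). The vascular median was 37.4 and 38.99 in GR-KO 1 and 3, where Cldn5 had a weak peak, and 27.7 in GR-KO 2, where it had none. The vascular difference thus rests on 1 weak promoter. For the astrocyte markers the median window percentile was 69.0 ± 1.95 in GR-con and 74.4 ± 1.06 in GR-KO libraries, with no overlap (66.9 to 70.7 against 73.3 to 75.4), and 14 of 16 windows and 16 of 16 promoters had the higher score in GR-KO, where 53.4% of all windows and 52.6% of all promoters had it (46.6% and 47.4% had the lower score). Of these 0 windows and 0 promoters were called by limma, with an unadjusted p under 0.05 at 5 windows and 3 promoters, all with GR-KO higher, where 5.0% of all windows and 4.56% of all promoters had this. These promoter counts are by fold. When ranked by −log10 p, the promoters of Slc1a3, Gja1, Gjb6, Aldoc and Acsbg1 had the lower score in GR-KO (differences of −0.08 to −0.0037). The other astrocyte promoters kept the higher score. The median difference in normal score was −0.02 over the 33 windows and 0.01 over all windows, and −0.00294 over the 18 promoters and 0.00897 over all promoters. Libraries also differed within a group, since microglial windows were highest in GR-con 1 (median percentile 53.7) and GR-KO 2 (50.7) and lowest in GR-KO 3 (40.9).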

How the data were processed

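ATAC-seq was measured in 3 GR-con and 3 GR-KO libraries of sorted V1 nuclei. The authors ran the ENCODE ATAC-seq pipeline (mm10, peak p threshold 0.01) on each library and deposited its peak list, whose columns are a capped score, a fold (ratio) over local background, and the −log10 p and −log10 q of each peak. Read depth was not given in the sources used here, so precision rests on the 3 libraries per group. No peak ended beyond its GRCm38 chromosome (0 of 1116429), and genes are from GENCODE M21.

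Deposited folds were ranked within each library, turned into normal scores and fitted with limma 3.58.1 (R 4.3.3; variance trend, two-sided, Benjamini-Hochberg over all features, adjusted p under 0.05). A feature needed a peak in 2 or more libraries to be tested. Simulated scores with known shifts were used to check the fit. Sequences and motifs were read with Python 3.11.15 and pysam 0.24.0 from RefSeq (GRCm38). Alternatives were a q-value limit of 0.01, equal lists, −log10 p, other windows, starts and filters, and leaving out each library.

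The member genes, lists and tests were chosen with earlier results of these data known. Named sites were, per class, the strongest at and away from promoters, those of smallest p in each direction, and every call. The study's count-based test and its fold limit were not used, since the lists hold no counts. Each library is a pool of animals, so p-values measure the spread between 3 pools per group.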

Additional observations from a re-analysis of the deposited data

How the results depend on the processing

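The member sites called numbered 1 under a q-value limit of 0.01, equal lists, ranking by −log10 p, at least 3 or all 6 libraries, 2 kb flanks and leaving out starts of other genes. They numbered 0 with an adjusted p under 0.01 and 0 without any one library, and 2 under the rule of more than 200 bp covered, where the sites called were others, near Pecam1 (lower) and Slc17a7 (higher). No member promoter and no member window was called under any alternative. Over all sites the calls were 302, and 2580 by −log10 p, 697 by coverage, 0 with an adjusted p under 0.01 and 0 to 3 without one library. Over all promoters they were 16, and 25 by −log10 p, 7 at the 5′ end of the gene only, 6 with an adjusted p under 0.01 and 1 to 16 without one library. Over all windows they were 15, and 115 by −log10 p, 27 with 2 kb flanks, 32 without starts of other genes, 7 by number of summits, 0 with an adjusted p under 0.01 and 0 without any one library. The lower share of site calls was 204 of 302, and 1351 of 2580 by −log10 p. The Trem2 window, not called, changed sign to 0.0405 by number of summits. Causes were not tested.

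The labels number the replicates 1 to 3 in both groups. Same-numbered libraries did not deviate together (correlations of deviations over sites of 0.03, −0.0049 and 0.03). The labels do not say whether same-numbered pools were collected or processed together, and these correlations cannot decide it. With the replicate block 0 sites, 1 promoter and 0 windows were called in all, and 0 member sites.

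Class levels moved with the window. The mean number of members with a promoter peak was 5.17 of 9 for neuronal markers (7 within 1 kb, 5.67 at the 5′ end), 5 for oligodendrocyte lineage (4 at the 5′ end, without Pdgfra) and 4.33 for vascular markers (5 within 1 kb). The median window percentile by −log10 p, with 2 kb flanks and without starts of other genes was 38.1, 56.7 and 65.5 for neuronal, 52.1, 54.8 and 80.8 for oligodendrocyte lineage, 33.1, 36.9 and 63.0 for microglial, and 30.0, 45.4 and 48.2 for vascular markers. A missing peak says only that none passed the caller's limit in that library.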
